A study of Mus musculus with 15 samples.

Results

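Cytochrome P450 (Cyp) families 1 to 3 were defined by name: every gene annotated as protein coding whose symbol begins with Cyp, a family number from 1 to 3 and a subfamily letter. The rule took 61 of the 54532 genes in the count tables, 3 of them in family 1, 49 in family 2 and 9 in family 3, in 17 subfamilies. The rule reads names and annotation only. RNA was sequenced from the livers of 4 mice on the control diet (CS) and 5 mice on a diet with 2% added phytosterols (PS), while lung RNA came from 6 of these mice, 3 on each diet. All animals were wild type male C57BL/6J mice with a labelled age of 28 weeks. The feeding times in the study's methods add up to a greater age. Replicates were numbered within a tissue: lung CS replicates 1, 2 and 3 came from the mice of liver CS replicates 1, 2 and 3, and lung PS replicates 1, 2 and 3 from those of liver PS replicates 1, 3 and 5. Replicates are separate mice, each sampled once per tissue.

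P450 enzymes of these families are haem proteins of the endoplasmic reticulum that oxidise drugs, plant compounds, steroids and fatty acids, with electrons passed on by P450 oxidoreductase (Por) and cytochrome b5. Family 1 genes are classic targets of the aryl hydrocarbon receptor (Ahr), Cyp2b genes of the constitutive androstane receptor CAR (Nr1i3) and Cyp3a genes of the pregnane X receptor PXR (Nr1i2), 3 regulators that respond to foreign compounds. Hepatocytes are the main site of these enzymes, with several subfamilies strongest near the central vein and several dependent on sex, whereas in the mouse lung they are concentrated in club cells, the secretory cells of the small airways.

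The members lay in tandem clusters. Chromosome 7 held 15 of them (Cyp2a, Cyp2b, Cyp2f2, Cyp2g1, Cyp2s1 and Cyp2t4 in 1 group of 13, with Cyp2e1 and Cyp2r1 apart), chromosome 19 held 15 (Cyp2c), chromosome 5 held 10 (Cyp3a and Cyp2w1), and chromosomes 4 and 15 held 8 each (Cyp2j and Cyp2d). Cyp1a1 and Cyp1a2 were neighbours on chromosome 9, and Cyp2u1, Cyp2ab1 and Cyp1b1 stood alone on chromosomes 3, 16 and 17. Tandem copies are close in sequence. In the annotation, 30 members shared a stretch of at least 200 bases with at least 95% identity with another gene. For Cyp2u1 and Cyp2s1 that gene, 4930534D22Rik and Gm26707, overlaps their exons on the other strand and is not a tandem copy. Cyp2a4 and Cyp2a5 were 98.2% identical over 1739 aligned bases, Cyp2c40 and Cyp2c68 were 98.0% identical over 1724, and Cyp3a25 and Cyp3a59 were 97.0% identical over 1991. Counts within such pairs depend on how reads that fit both copies were assigned, so their separate values are uncertain.

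The promoters of 8 members around which the results turn are printed here from RefSeq, build GRCm38.p6, as 300 bases from 250 before the transcription start to the 50th base after it, 5′ to 3′ on the gene's strand. Cyp2e1 and Cyp3a11 are abundant liver genes, Cyp2f2 leads in lung, Cyp1a1 and Cyp1a2 are neighbours with opposite tissue patterns, Cyp2b10 and Cyp2b9 are relatives with unlike patterns, and Cyp2c38 had the smallest p-value of the members in the liver diet comparison. Capitals mark the letters TATAAA (the box bound by the general factor TBP), CAAAGTCCA (a core of HNF4 sites) and TGTTTAC (a core of FOXA sites).
Cyp2e1 (chr7:140763569-140763868, plus strand): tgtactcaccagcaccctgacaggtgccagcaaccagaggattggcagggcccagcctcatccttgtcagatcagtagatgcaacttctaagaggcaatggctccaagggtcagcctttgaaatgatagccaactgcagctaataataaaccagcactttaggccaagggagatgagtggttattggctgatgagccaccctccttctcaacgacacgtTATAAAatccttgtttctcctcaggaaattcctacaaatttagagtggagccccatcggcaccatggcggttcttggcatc
Cyp3a11 (chr5:145879805-145880104, minus strand): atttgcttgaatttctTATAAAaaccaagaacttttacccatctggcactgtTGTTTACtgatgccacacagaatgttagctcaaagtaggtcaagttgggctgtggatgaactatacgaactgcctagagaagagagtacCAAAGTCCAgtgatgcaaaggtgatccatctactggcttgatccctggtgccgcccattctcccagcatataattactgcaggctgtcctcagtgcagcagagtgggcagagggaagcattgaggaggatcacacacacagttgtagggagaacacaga
Cyp2f2 (chr7:27119705-27120004, plus strand): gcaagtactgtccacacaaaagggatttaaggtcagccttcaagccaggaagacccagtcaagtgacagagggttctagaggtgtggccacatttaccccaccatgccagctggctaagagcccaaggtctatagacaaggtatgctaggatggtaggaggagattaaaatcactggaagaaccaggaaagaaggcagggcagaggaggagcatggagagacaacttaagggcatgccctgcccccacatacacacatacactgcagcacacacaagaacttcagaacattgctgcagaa
Cyp1a1 (chr9:57697363-57697662, plus strand): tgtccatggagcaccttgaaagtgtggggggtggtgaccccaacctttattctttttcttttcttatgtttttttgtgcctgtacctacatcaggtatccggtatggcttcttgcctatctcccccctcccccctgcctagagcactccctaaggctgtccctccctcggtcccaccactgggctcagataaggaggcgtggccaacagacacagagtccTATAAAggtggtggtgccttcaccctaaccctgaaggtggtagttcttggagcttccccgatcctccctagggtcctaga
Cyp1a2 (chr9:57683606-57683905, minus strand): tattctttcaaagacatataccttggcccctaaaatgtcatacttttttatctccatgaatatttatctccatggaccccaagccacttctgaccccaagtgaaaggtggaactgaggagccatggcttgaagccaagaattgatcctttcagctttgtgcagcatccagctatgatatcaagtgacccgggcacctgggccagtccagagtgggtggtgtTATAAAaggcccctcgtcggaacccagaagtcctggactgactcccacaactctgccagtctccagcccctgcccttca
Cyp2b10 (chr7:25897408-25897707, plus strand): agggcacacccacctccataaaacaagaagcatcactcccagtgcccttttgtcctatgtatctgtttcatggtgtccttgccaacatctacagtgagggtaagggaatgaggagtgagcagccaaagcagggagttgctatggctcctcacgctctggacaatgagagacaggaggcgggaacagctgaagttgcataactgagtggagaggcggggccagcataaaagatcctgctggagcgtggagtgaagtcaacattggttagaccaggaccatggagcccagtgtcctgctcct
Cyp2b9 (chr7:26173159-26173458, plus strand): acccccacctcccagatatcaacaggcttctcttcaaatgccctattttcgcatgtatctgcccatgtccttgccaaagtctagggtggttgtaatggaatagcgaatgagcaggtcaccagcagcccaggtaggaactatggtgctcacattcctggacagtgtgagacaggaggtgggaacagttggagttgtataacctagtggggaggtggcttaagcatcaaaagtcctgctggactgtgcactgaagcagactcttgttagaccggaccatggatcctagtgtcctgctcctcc
Cyp2c38 (chr19:39463026-39463325, minus strand): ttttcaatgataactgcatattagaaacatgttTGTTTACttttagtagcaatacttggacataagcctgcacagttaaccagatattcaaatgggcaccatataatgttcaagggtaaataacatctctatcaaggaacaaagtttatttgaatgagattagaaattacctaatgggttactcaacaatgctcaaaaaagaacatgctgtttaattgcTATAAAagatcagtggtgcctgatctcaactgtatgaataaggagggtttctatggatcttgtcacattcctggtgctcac

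A promoter was found for 53 members (56 starts). TATAAA, searched on the gene's strand, occurred in 39.3% of the member promoters and in 8.32% of all 32851 promoters of the same length. CAAAGTCCA, searched on both strands, occurred in 17.9% against 0.475%, all of them Cyp2c or Cyp3a members, and TGTTTAC, searched on both strands, in 17.9% against 3.65%. Some of these promoters are near copies of each other, so the shares do not count independent sequences. Cyp1a1, Cyp1a2, Cyp2c38 and Cyp2e1 carried TATAAA 30, 29, 31 and 31 bases before the start, while in Cyp3a11 it lay 234 bases before it. The windows of Cyp2f2, Cyp2b10 and Cyp2b9 held none of the 3 strings, and the Cyp2b10 and Cyp2b9 windows were 72.9% identical to each other. Other strings were searched on both strands. TNGCGTG (Ahr) was found in 1.79% of member promoters, only that of Cyp2c68, and in 5.07% of all. TTNNGCAAT (C/EBP) was found in 7.14% and 2.18%, and the HNF1 consensus in 0 and 0.399%. The D-box form TTATGTAA was found in 0 and 0.938%, and TTACGTAA in 0 and 0.119%. No window reached more than 250 bases before the start, so sites farther upstream were not searched.

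Total counts ranged from 14410117 to 17625179 in the liver and from 17934930 to 19396057 in the lung. Scgb3a2 (a secretoglobin of airway cells) was abundant in every lung and at 0 in every liver. Alb (albumin, the main plasma protein made by hepatocytes) nevertheless had 1177, 6 and 12 counts in the CS lungs and 21, 186 and 87 in the PS lungs, so lung CS replicate 1 stood apart. Liver CS replicate 2 was far from the other CS livers for Cyp2c68, Cyp2d26 and Cyp3a13, and several member results below changed without it. In bulk tissue, fewer cells of a type and less RNA per cell cannot be told apart.

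Of the 61 members, 39 passed the filter on low counts in the liver and 19 in the lung. Counts were 0 in every liver for 7 members (Cyp2b19, Cyp2c65, Cyp2j11, Cyp2j12, Cyp2j13, Cyp2w1 and Cyp3a41a), in every lung for 16, and in all 15 libraries for 5 (Cyp2j11, Cyp2j12, Cyp2j13, Cyp2w1 and Cyp3a41a). All members together took 1.53% to 2.73% of the counts of a liver and 0.134% to 0.388% of those of a lung. The heat map of levels shows 31 of the members in each library.

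**Figure D1:**
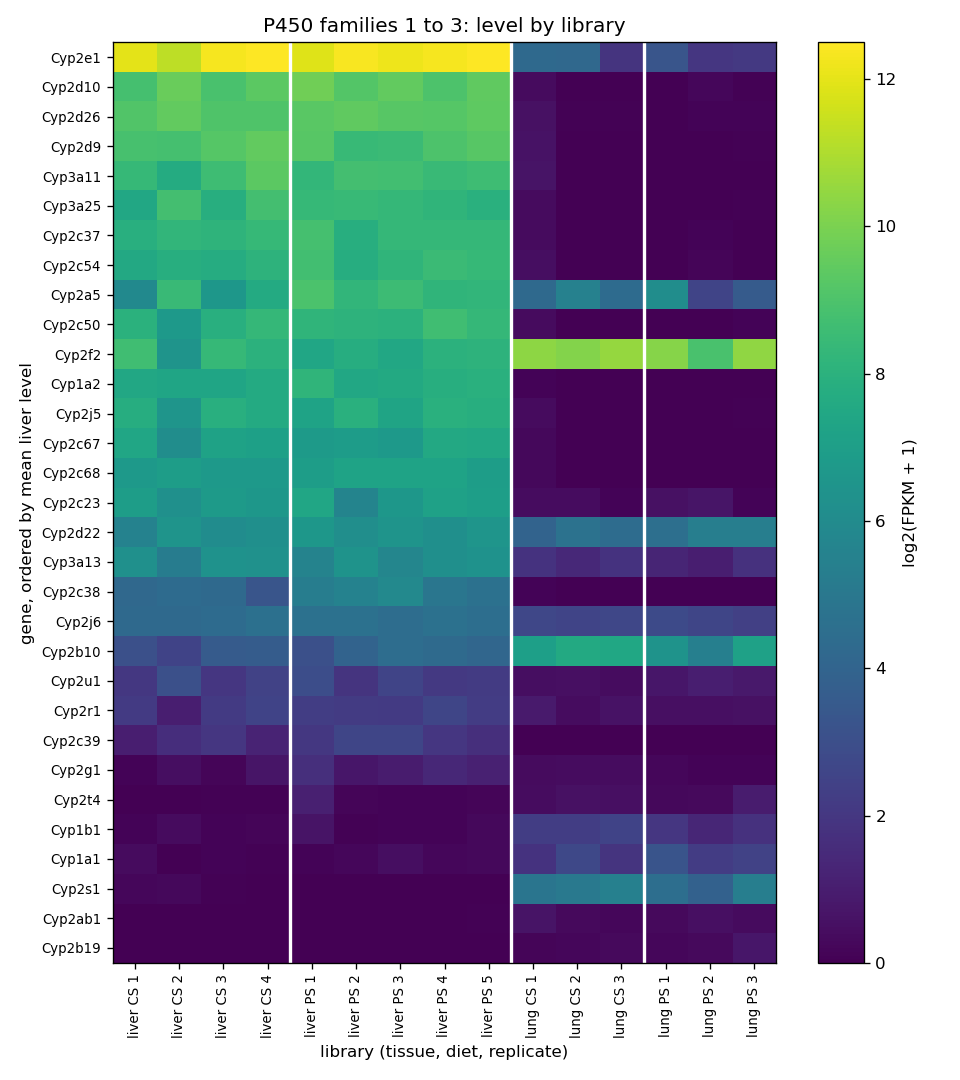
Level of 31 members in each of the 15 libraries as log2(FPKM + 1), from dark (0) to yellow (the highest), with rows ordered by the mean of the 9 livers and white lines between the 4 groups. Cyp2e1 is the brightest row in every liver and Cyp2f2 the brightest in every lung, and most rows that are bright in liver are dark in lung.

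In the liver the levels were led by Cyp2e1, which oxidises ethanol and acetone and lies near the central vein. It stood at 3987, 2447, 5125 and 5775 FPKM in the CS livers and at 3783, 5282, 4633, 5208 and 5593 in the PS livers (FPKM is fragments scaled for gene length and library depth, so genes can be compared). Its mean over 9 livers was 4648 ± 1069 FPKM (SD), and it made up 34.1% to 51.1% of the summed FPKM of all members in each liver. Cyp2e1 was the highest member in every liver, lowest of all in CS replicate 2, and the diets overlapped.

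The Cyp2d subfamily, whose human counterpart CYP2D6 handles many drugs, came next. Cyp2d10 averaged 639 ± 147 FPKM, Cyp2d26 616 ± 72.2 and Cyp2d9 519.9 ± 124 (SD, n = 9), neighbours in the order whose levels did not differ beyond their spread over livers. Cyp2d10 and Cyp2d9 also share sequence (95.1% identical over 720 bases). The leading Cyp3a genes, relatives of the drug-metabolising human CYP3A4, followed, with Cyp3a11 at 384 ± 119 FPKM and Cyp3a25 at 311 ± 85.7. Among the Cyp2c genes, which oxidise fatty acids and drugs, Cyp2c37 averaged 308 ± 64.0 FPKM, Cyp2c54 277 ± 77.1 and Cyp2c50 273 ± 79.6, and these overlapped too. Cyp2a5, the coumarin 7-hydroxylase, averaged 274 ± 136, and Cyp1a2, the caffeine demethylase, 203 ± 41.1.

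Lung had a different leader. Cyp2f2, the naphthalene-activating enzyme of club cells, stood at 1313, 1174 and 1471 FPKM in the CS lungs and at 1193, 486 and 1382 in the PS lungs, and made up 78.0% to 84.9% of the summed member FPKM in each lung. PS replicate 2 was far below the other 5 lungs, which lay close together. Cyp2b10, the main Cyp2b enzyme of lung and the classic CAR target of liver, followed at 128 ± 56.4 FPKM (SD, n = 6). Cyp2s1 (29.9 ± 10.9), an enzyme of epithelia exposed to the outside, Cyp2a5 (27.7 ± 23.8) and Cyp2d22 (26.9 ± 10.2) came next and did not differ beyond their spread. Cyp2e1 averaged 8.87 ± 7.29 FPKM, Cyp2j6 5.19 ± 0.608, Cyp1a1 4.59 ± 2.19, Cyp1b1 3.19 ± 1.11 and Cyp3a13 1.97 ± 0.650. Cyp2e1 varied by library, with 774, 728 and 106 counts in the CS lungs and 313, 114 and 128 in the PS lungs. Adipoq (adiponectin, a fat cell hormone) had 270, 377 and 37 and 216, 0 and 0 counts there, and the 6 fat cell markers summed to 7.99 to 162 CPM (counts scaled to library depth), the libraries rich in Adipoq being those rich in Cyp2e1; the part of fat in the Cyp2e1 value was not tested.

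Which P450s separate lung from liver was tested in 1 edgeR model over 15 libraries. Of the 46 members that passed its filter, 7 were called higher in lung and 38 lower (adjusted p under 0.05). Across the 17696 genes of the fit 42.3% were higher and 34.4% lower, against 15.2% and 82.6% of the members. The median log2 fold change of the members was -9.28 as fitted, and -8.88 with the 6 tested members at 0 in every lung and the 1 at 0 in every liver set to their bounds, and that of all genes was 0.17. With the mouse as a block in the 12 libraries of the 6 mice that gave both tissues, 7 of 45 members were higher and 35 lower, and without lung CS replicate 1 it was 8 and 38 of 47.

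The members higher in lung belonged to 6 subfamilies. Cyp2s1 stood at 28.2, 32.5 and 43.2 FPKM in the CS lungs and 21.9, 13.9 and 39.5 in the PS lungs, against 0 to 0.192 in the 9 livers. Its log2 fold change was 8.27 ± 0.38 (SE; edgeR adjusted p = 4.7e-12), and every lung was far above every liver. Cyp2b19, a keratinocyte epoxygenase, had 11, 12 and 18 counts in the CS lungs, 12, 19 and 54 in the PS lungs and 0 in every liver, at least 21.2-fold higher in lung after TMM scaling, and at least 55.4-fold in CPM without it, when the liver is set to a floor of 3 counts over its 9 libraries.

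Cyp1a1 and Cyp1a2, neighbours on chromosome 9 that both carry TATAAA near the start and whose promoter windows were 50.0% identical, differed between the tissues in opposite directions. Cyp1a1, which activates polycyclic aromatic hydrocarbons, stood at 2.61, 5.55 and 2.64 FPKM in the CS lungs and 8.42, 3.74 and 4.60 in the PS lungs, and at 0 to 0.397 in the livers. The log2 fold change of Cyp1a1 was 3.52 ± 0.45 (SE; edgeR adjusted p = 1.9e-06), with no overlap between the tissues. Cyp1a2 was between 163 and 284 FPKM in the livers, while the 6 lungs held 3 counts in all, each in lung CS replicate 1. The pooled ratio of Cyp1a2, liver over lung in CPM, was 14710.4, with an exact 95% interval for counting error alone of 5033 to 71334. The third family 1 gene, Cyp1b1, a steroid and hydrocarbon hydroxylase of stromal tissue, was higher in lung (log2 fold change 2.77 ± 0.41; edgeR adjusted p = 1.1e-05).

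Cyp2b10 was 4.03-fold higher in lung and Cyp2f2 1.84-fold (edgeR adjusted p = 4.14e-06 and 0.0111), after TMM scaling between the tissues. In CPM pooled over libraries, with no such scaling, they were 10.2-fold and 4.80-fold higher. Fitted and pooled values were 11.4-fold and 27.8-fold for Cyp1a1 and 6.84-fold and 19.4-fold for Cyp1b1. They were 12.4-fold and 30.9-fold for Cyp2ab1, and 308-fold and 584-fold for Cyp2s1. The size of these differences thus rests on the scaling and their direction does not. The Cyp2f2 call was lost with the CS libraries alone (edgeR adjusted p = 0.118; log2 fold change 0.92). Cyp2ab1 was the remaining call (log2 fold change 3.64 ± 0.70), and Cyp2t4 was not called (1.10 ± 0.74; edgeR adjusted p = 0.187).

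**Figure D2:**
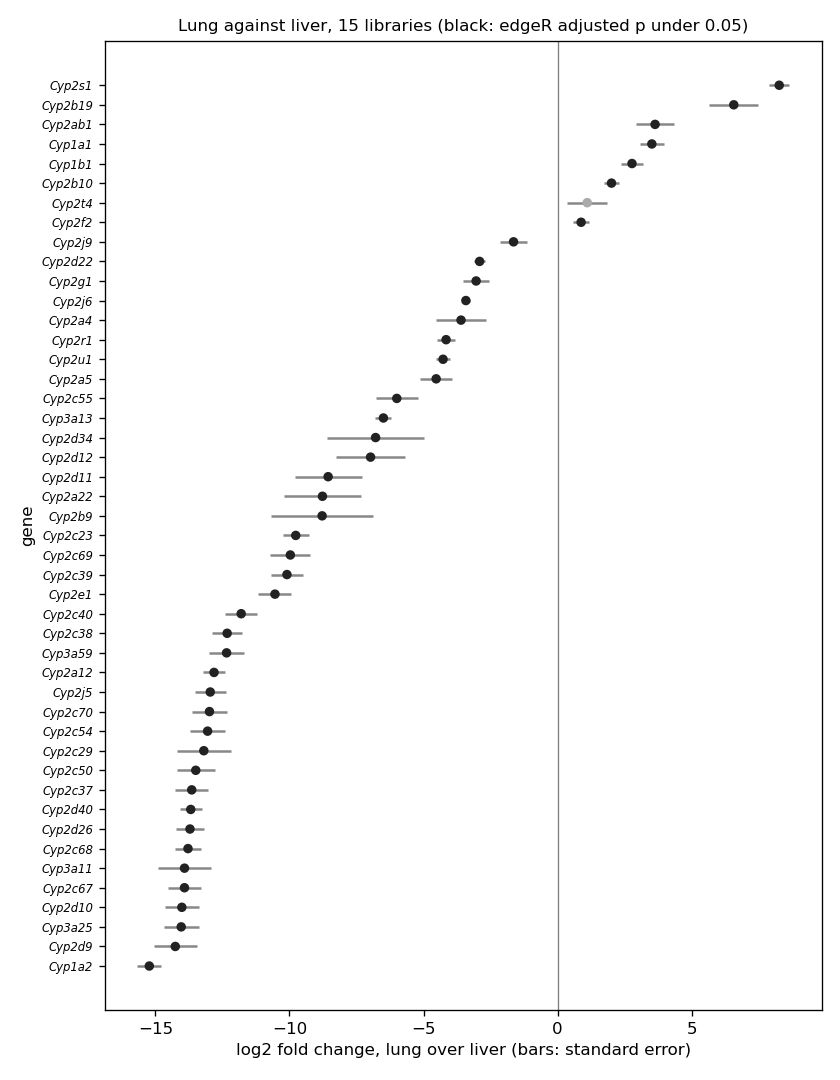
Fitted log2 fold change of lung over liver for the 46 members tested, with standard errors, in 15 libraries. Black points passed an edgeR adjusted p under 0.05: 7 lie right of 0 and 38 left of it, down to -15.23 for Cyp1a2.

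Among the 38 members lower in lung, the largest fitted differences after Cyp1a2 were those of Cyp2d9 (log2 fold change -14.26 ± 0.80), Cyp3a25 (-14.04 ± 0.66), Cyp2d10 (-14.02 ± 0.64) and Cyp2c67 (-13.92 ± 0.61), each called at an edgeR adjusted p under 0.05. These sizes and their order rest on few reads and on lung CS replicate 1: without it the largest were Cyp3a11 (-17.12), Cyp2d9 (-16.94), Cyp1a2 (-16.40), Cyp3a25 (-16.07) and Cyp2d10 (-15.99). With all libraries, Cyp2d9 had 28, 0 and 0 counts in the CS lungs and 0, 1 and 2 in the PS lungs, beside 196692 in the livers together. Of 24 members with a mean of at least 1000 counts in liver, all 24 had a count in lung CS replicate 1, against 8 to 18 in the other 5 lungs. The 17 of them that failed the lung filter summed to 225 counts in that library and to 2 to 34 in each of the others, as the plot of lung counts shows. Alb was highest in the same library, and the part of liver RNA in these counts was not tested. The smallest called differences were those of Cyp2j9 (-1.64 ± 0.51), Cyp2d22 (-2.91 ± 0.20), Cyp2g1 (-3.04 ± 0.47) and Cyp2j6 (-3.42 ± 0.14), all after TMM scaling. In pooled CPM without that scaling they were smaller, with liver over lung at 2.82 for Cyp2d22, 3.74 for Cyp2g1 and 4.16 for Cyp2j6. For Cyp2j9 that ratio was 1.16, and 0.828 without liver CS replicate 2, which held 382 of its 1054 liver counts, so the direction for Cyp2j9 depends on the scaling and on that library. The Cyp2j9 call was lost with the CS libraries alone (edgeR adjusted p = 0.0838) and with the mouse as a block (0.089), and the Cyp2g1 call with the CS libraries alone (0.150).

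**Figure D3:**
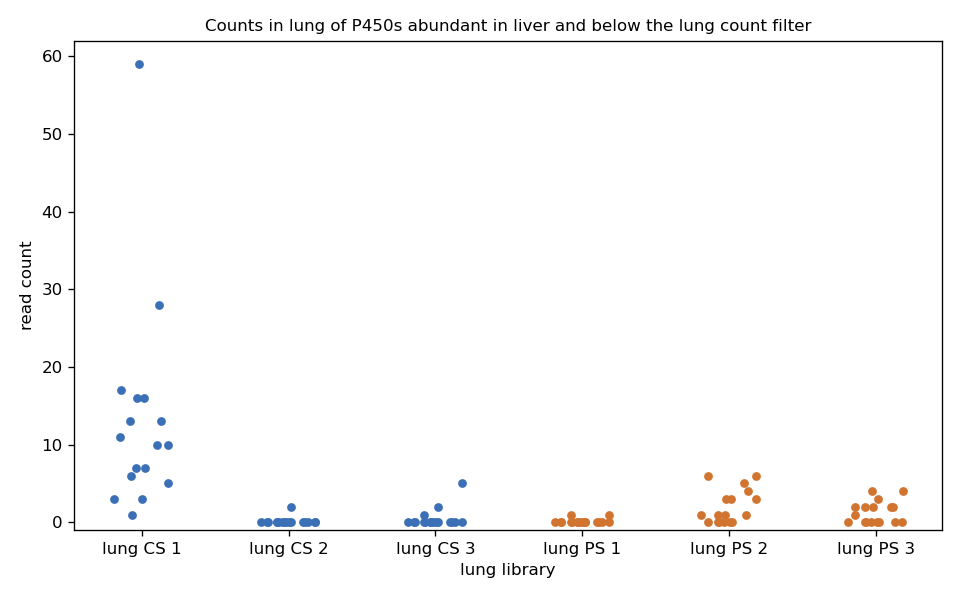
Read counts in each lung library of the 17 members that average at least 1000 counts per liver and fail the lung filter, 1 point per gene, CS blue and PS orange, with a random sideways shift. Points of lung CS 1 reach 59, and those of the other 5 lungs stay between 0 and 6.

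Whether the phytosterol diet moved the P450s of the liver was tested in 4 CS against 5 PS livers. Cyp2c38 and Cyp2g1 were higher in every PS liver than in any CS liver, but neither passed an adjusted p under 0.05 in edgeR, and no other member did. Of the 39 members tested, 0 were higher and 0 lower at that threshold, where 0.00758% of all genes were higher and 0% lower. DESeq2's Wald test called 2 of the 39 members higher, Cyp2c38 and Cyp2g1, beside 0.834% of all genes, and 0 lower beside 0.402%, and limma on log2 FPKM called 0. At an unadjusted p of at most 0.05, edgeR had 6 members higher (15.4%) and 0 lower, beside 3.96% and 3.58% of all genes. The median log2 fold change was 0.23 in the members, with 30 above 0 and 9 below, and -0.03 in all genes. Without CS replicate 4 the median of the members was 0.35, with 34 above and 6 below, and with no filter it was 0.36.

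Cyp2c38, an arachidonic acid epoxygenase, stood at 17.9, 19.97, 18.5 and 8.83 FPKM in the CS livers and 38.0, 45.5, 57.6, 28.8 and 24.7 in the PS livers. The 2 sets did not overlap, and CS replicate 4 was the lowest. The log2 fold change was 1.26 ± 0.31 (SE), 2.40-fold, with an unadjusted p of 0.0016 and an edgeR adjusted p of 0.232, or 0.0121 with DESeq2. No gene came within the 95% identity that marks a copy of Cyp2c38.

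Cyp2g1, an enzyme known from the olfactory mucosa, was scarce, with 3, 12, 4 and 21 counts in the CS livers and 60, 25, 34, 59 and 39 in the PS livers. In FPKM it was 0.0788, 0.378, 0.111 and 0.641 against 2.19, 0.676, 0.924, 1.59 and 1.22, again without overlap. Its log2 fold change was 2.13 ± 0.60, with an edgeR adjusted p of 0.341, and 0.0305 with DESeq2. A near copy of part of it, Gm44964, had 0 counts in every library. Groups without overlap made up 5.13% of members in the higher direction and 0 in the lower, against 2.1% and 1.53% of all genes.

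The other members at an unadjusted p of at most 0.05 had overlapping groups in normalized counts. Cyp2c39, which also oxidises retinoic acid and had 2 promoter windows, 78.1% and 72.9% identical to that of Cyp2c38, stood at 1.09, 2.12, 2.92 and 1.37 FPKM in the CS livers and 3.06, 5.14, 5.10, 2.96 and 2.25 in the PS livers (log2 fold change 0.99 ± 0.36; edgeR adjusted p = 0.513). Cyp2b10 stood at 7.26, 4.74, 11.0 and 11.5 FPKM against 7.37, 14.5, 21.5, 18.8 and 16.7, 4 of the 5 PS livers lying above every CS liver (0.88 ± 0.33; edgeR adjusted p = 0.531). Cyp2b13, 96.1% identical to Cyp2b10 over 336 bases, had 10 counts in 1 liver and 0 in the others. Cyp2c54 and Cyp2c68 had small differences of 0.54 ± 0.22 and 0.37 ± 0.16 (edgeR adjusted p = 0.583 and 0.636), and both have near copies.

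**Figure D4:**
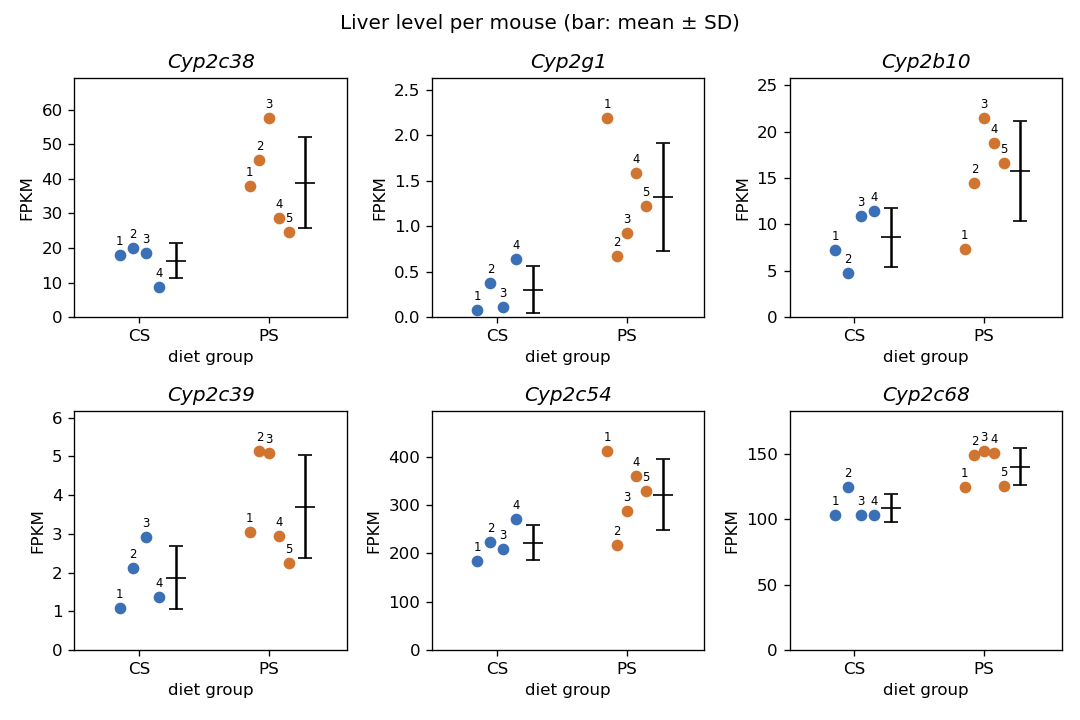
FPKM in each liver of the 6 members with an unadjusted p of at most 0.05, CS (4 livers, blue) and PS (5 livers, orange), each point numbered by replicate, with mean ± SD beside them and axes from 0. Cyp2c38 and Cyp2g1 show 2 separate sets of points, and in Cyp2b10 only PS replicate 1 falls among the CS livers.

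Cyp2e1 had means of 4333 ± 1459 FPKM in CS and 4899.7 ± 714 in PS (SD, n = 4 and 5), and Cyp3a11 had 389.6 ± 184 and 379.8 ± 51.4, gaps below the SD of either group. Cyp1a2 had 175 ± 14.9 and 226 ± 42.0, a gap above either SD, but its groups overlapped and it did not pass (log2 fold change 0.37 ± 0.18; edgeR adjusted p = 0.697). Cyp2a5 stood at 60.7, 357, 98.2 and 198 FPKM in CS and 490.3, 293, 383, 285 and 295 in PS (log2 fold change 0.97 ± 0.44; edgeR adjusted p = 0.660). Only CS replicate 2 among the CS livers reached the PS range of Cyp2a5.

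The count of 6 depended on single livers. It became 11 higher and 1 lower without CS replicate 2, where 7.77% of all genes were higher and 6.37% lower. It was 2 higher without CS replicate 1 and 3 higher without PS replicate 3, where 2.76% and 2.88% of all genes were higher, so the counts over all genes shifted in the same directions. Without CS replicate 2 the members higher were Cyp2a22, Cyp2a4, Cyp2a5, Cyp2b10, Cyp2b9, Cyp2c38, Cyp2c39, Cyp2c54, Cyp2c68, Cyp2d22 and Cyp2g1, and the member lower was Cyp2f2. Cyp2c38 kept a log2 fold change between 1.06 and 1.41 in every alternative, with edgeR, limma and DESeq2 adjusted p between 0.0121 and 1.0.

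Cyp2b9, Cyp2a22 and Cyp2a4 varied widely between livers of 1 diet, and were chosen after their values were seen. Cyp2b9, known as higher in female than in male mouse liver, had 4, 310, 7 and 2 counts in the CS livers and 44, 2417, 659, 11 and 21 in the PS livers, so 1 CS and 2 PS males stood far above the rest of their group. Cyp2a22 had 38, 871, 16 and 18 and 259, 461, 706, 49 and 31 counts, and Cyp2a4, a testosterone 15 alpha-hydroxylase, 2, 82, 0 and 10 and 15, 102, 54, 16 and 10. Cyp2b9, Cyp2a22 and Cyp2a4 were high in the same 3 livers, CS replicate 2 and PS replicates 2 and 3, with Cyp2a22 also raised in PS replicate 1. Their coefficients of variation within CS were 191%, 182% and 169%, against 8.53% for Cyp1a2. Cyp2a4 and Cyp2a22 have near copies, Cyp2a5 (98.2% identical over 1739 bases) and Cyp2a12 (95.4% over 3462). The part of reads from near copies in the shared pattern was not tested.

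Of the sex-biased genes outside the P450s, Selenbp2, higher in male liver, had 4159, 152, 3280 and 3499 counts in CS and 415, 58, 194, 1576 and 1787 in PS, lowest in the 3 livers where Cyp2b9 was highest. The summed female-biased list did not follow Cyp2b9: among CS livers it was lowest in replicate 2 (42.4 CPM) and highest in replicate 1 (112), and among PS livers it was 114 in replicate 2, 61.2 in replicate 3 and 32.2 to 72.8 in the others. Of the 8 male-biased genes listed, 7 were lower in PS and 1 passed an unadjusted p of at most 0.05, and of 5 tested female-biased genes 3 were higher and 2 passed. No gene of either list had an edgeR adjusted p under 0.05. The summed male-biased list stood at 4310, 2002, 3464 and 8631 CPM in CS and 3740, 1552, 2352, 3042 and 4108 in PS. That sum was lowest in the 3 livers where Cyp2b9 was highest. Mup20 had the most counts of the list in each liver, from 18957 to 114400. The part of either list in the Cyp2b9 values was not tested.

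In the lung diet comparison, 3 CS against 3 PS lungs, 1 of the 19 members tested was called. Cyp2u1, a fatty acid hydroxylase, was higher in PS, and no member was called lower. At an adjusted p under 0.05 in edgeR 4.8% of all genes were higher and 4.43% lower, beside 5.26% and 0 of the members. At an unadjusted p of at most 0.05 edgeR had 2 members higher and 2 lower (10.5% each), against 15.6% and 14.5% of all genes, and DESeq2 called Cyp2u1 and Cyp2d22 higher and Cyp1b1 lower at its adjusted p, beside 9.64% and 8.85% of all genes. The median log2 fold change of the members was -0.04 and that of all genes 0.005, and the median of the members had no stable sign: it ran from -0.36 without PS replicate 1 to 0.04 without PS replicate 3 when 1 lung was left out, with -0.12 and -0.17 without CS replicates 2 and 3. These shares lay near or below the background.

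Cyp2u1 had 37, 45 and 34 counts in the CS lungs and 60, 98 and 78 in the PS lungs, or 0.359, 0.443 and 0.351 against 0.687, 1.06 and 0.813 FPKM, all PS lungs above all CS lungs. The log2 fold change was 1.14 ± 0.30 (SE; edgeR adjusted p = 0.0479). The call was lost in 8 of 13 alternatives, among them 5 of the 6 fits that left out 1 lung and both limma fits, and adjusted p ranged from 0.0128 to 0.153 over the alternatives. Without lung CS replicate 1, 2 or 3 the edgeR adjusted p was 0.150, 0.136 and 0.148, and without lung PS replicate 2 or 3 it was 0.153 and 0.0570. The gene 4930534D22Rik, which overlaps 548 exon bases of Cyp2u1 on the other strand, had 0 or 1 count in each lung. In the liver Cyp2u1 levels of the diets overlapped (3.05, 7.28, 2.95 and 4.56 FPKM in CS and 6.71, 2.69, 4.81, 3.19 and 3.46 in PS).

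Cyp1b1 was lower in every PS lung (2.90, 1.54 and 2.45 FPKM) than in any CS lung (3.88, 3.76 and 4.62), with a log2 fold change of -0.83 ± 0.24 (edgeR adjusted p = 0.0608). It passed in 4 of 13 alternatives, with adjusted p from 0.0163 (DESeq2) to 0.195 (edgeR without lung CS replicate 3), and without PS replicate 1 the edgeR adjusted p was 0.0296. Cyp2g1 also had separate groups, with 12, 13 and 14 counts in CS and 6, 3 and 4 in PS (-1.43 ± 0.50; edgeR adjusted p = 0.0950). No overlap was found for 1 member higher (5.26%) and 2 lower (10.5%), against 17.3% and 18.8% of all genes. Cyp2d22, a relative of human CYP2D6, stood at 14.7, 24.7 and 20.4 and 23.0, 39.3 and 39.4 FPKM, with PS replicate 1 inside the CS range (0.76 ± 0.26; edgeR adjusted p = 0.0867). It passed in 3 of 13 alternatives, with adjusted p from 0.0220 (edgeR without PS replicate 1) to 0.250 (edgeR without CS replicate 1).

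Cyp2b10 and Cyp2f2, the highest members in lung, had lower means in the PS lungs without a call in the fit of all 6 lungs, while Cyp2a5 did not (18.4, 44.0 and 19.5 FPKM in CS and 67.9, 4.89 and 11.2 in PS; log2 fold change 0.02 ± 1.03, edgeR adjusted p = 0.993). Cyp2b10 stood at 130.0, 192 and 175 FPKM in CS and 85.9, 41.0 and 141 in PS (log2 fold change -0.89 ± 0.39; edgeR adjusted p = 0.168), with PS replicate 3 inside the CS range. It passed in 1 of 13 alternatives, without PS replicate 3 (edgeR adjusted p = 0.0381), as did Cyp2s1 (0.0478 there, and -0.46 ± 0.35 with all lungs). Cyp2f2 had a log2 fold change of -0.37 ± 0.35 (edgeR adjusted p = 0.504), which went to -0.03 without PS replicate 2. All 10 club cell markers had log2 fold changes below 0 with a median of -0.44, and 1 passed the adjusted threshold. Scgb3a2 had 24068, 33825 and 29237 counts in CS and 33179, 7673 and 12959 in PS, lowest in the library where Cyp2f2 was lowest. The summed club cell markers ran from 45374 to 70028 CPM in CS and from 35904 to 64159.8 in PS, and their part in the Cyp2f2 and Cyp2b10 values was not tested.

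**Figure D5:**
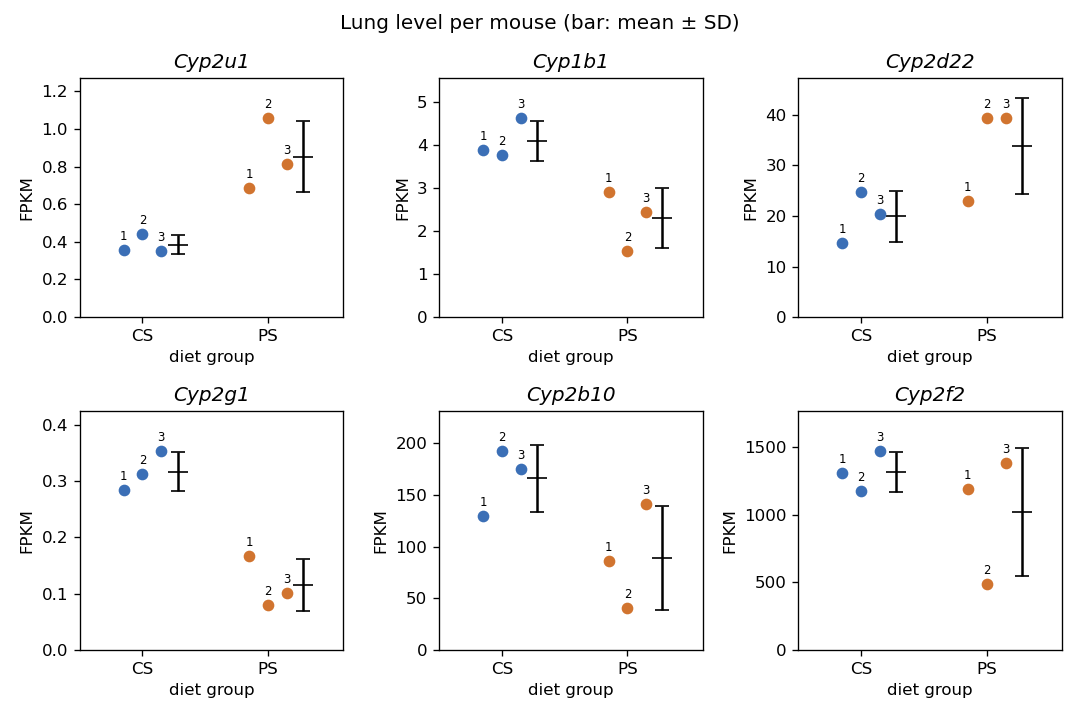
FPKM in each lung of the 4 members with an unadjusted p of at most 0.05 and of Cyp2b10 and Cyp2f2, CS (3 lungs, blue) and PS (3 lungs, orange), each point numbered by replicate, with mean ± SD beside them and axes from 0. The groups are apart in Cyp2u1, Cyp1b1 and Cyp2g1, and PS replicate 2 is the lowest point for Cyp2b10 and Cyp2f2.

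Whether the diet effect differed between the tissues was tested as lung minus liver. In edgeR 0 members passed the adjusted threshold, where 0.00565% of all genes were higher and 0.017% lower, and DESeq2 called 1 member, Cyp2g1, lower, beside 0.514% of all genes higher and 0.774% lower. At an unadjusted p of at most 0.05 edgeR had 2 members higher (4.35%) and 8 lower (17.4%), against 5.54% and 5.4% of all genes. Of these members, only Cyp2g1, Cyp2b10 and Cyp2u1 passed the filter on low counts in both tissues. The others failed it in lung or in liver, so these shares cannot be read as diet effects measured in both tissues. Blocking on the mouse left 1 higher and 4 lower, beside 3.21% and 2.35% of all genes. The count lower depended on the CS lungs: it was 3 without lung CS replicate 1, the library with the most Alb reads, 13 without lung CS replicate 2 and 12 without lung CS replicate 3, where 4.13%, 4.24% and 4.25% of all genes were lower. It was 5 without lung PS replicate 3, beside 4.89% of all genes. Of the 46 members in this fit, 6 had 0 counts in every lung and 1 in every liver, and for these no difference of diet effects can be read.

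Cyp2g1 was the largest of these by p-value, with a difference of -3.59 ± 0.90 on the log2 scale (unadjusted p = 0.001; edgeR adjusted p = 0.216, DESeq2 adjusted p = 0.0126), its counts being higher in every PS liver and lower in every PS lung. Blocking on the mouse gave -4.53 for Cyp2g1 (edgeR adjusted p = 0.777). Cyp2b10 had a difference of -1.82 ± 0.56 (edgeR adjusted p = 0.315), and -1.98 without lung CS replicate 1. Cyp2t4 had -3.75 ± 1.49 (edgeR adjusted p = 0.404), with 24 counts in liver PS replicate 1 and 0 to 4 in the other livers, and -2.32 without that library. The members higher were Cyp2s1 (2.37 ± 0.90), with 0 to 14 counts in each liver, and Cyp2u1 (1.18 ± 0.48), at edgeR adjusted p = 0.386 and 0.410. Both missed the unadjusted threshold without liver CS replicate 2, at differences of 1.92 and 0.86, and Cyp2u1 also without lung CS replicate 1 or 3 or lung PS replicate 2, at 1.13, 1.12 and 1.00. For Cyp2c38, Cyp2c68, Cyp2c67, Cyp1a2 and Cyp3a11 the differences lay between -2.89 and -4.65, but the lung counts behind them came almost all from lung CS replicate 1, and that of Cyp3a11 went from -3.28 to 3.16 without it.

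The partners and regulators of P450s were read from lists of named genes. Of 7 genes for electron transfer and haem supply, 0 passed an edgeR adjusted p under 0.05 in the liver and 1 had an unadjusted p of at most 0.05. That gene was Alas1, the first and rate-limiting enzyme of haem synthesis, with 4707, 5228, 5464 and 3737 counts in the CS livers and 8242, 10318, 12510, 9920 and 10454 in the PS livers, no overlap, and a log2 fold change of 1.13 ± 0.19 (edgeR adjusted p = 0.0974). Por differed by -0.03 ± 0.27. Of 13 tested regulators, 2 had an unadjusted p of at most 0.05 in the higher direction, 1 in the lower, and 0 were called. Ahr was 0.46 ± 0.17 higher and Nr0b2, the bile acid-induced repressor SHP, 1.22 ± 0.36 higher (edgeR adjusted p = 0.507 and 0.374). Rxrb, a retinoid X receptor and so a partner of CAR and PXR, was the 1 lower, with 658, 579, 609 and 590 counts in the CS livers and 355, 498, 477, 511 and 342 in the PS livers, no overlap, and a log2 fold change of -0.46 ± 0.14 (edgeR adjusted p = 0.406). Nr1i3 and Nr1i2 had differences of 0.34 ± 0.18 and 0.20 ± 0.24.

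Of the other targets of Ahr, 4 were tested in liver and 1, the glucuronosyltransferase Ugt1a6a, had an unadjusted p of at most 0.05 (log2 fold change 1.69 ± 0.34; edgeR adjusted p = 0.135). Of 10 other targets of CAR and PXR 2 were higher and 1 lower at that threshold in the liver. In the lung, both target lists summed lower in every PS library than in any CS library. The Ahr targets ran from 66.0 to 97.1 CPM in PS and from 124 to 135 in CS. The CAR and PXR targets ran from 1320 to 1643 in PS and from 2054 to 2495 in CS. At an edgeR adjusted p under 0.05, 0 of 5 tested Ahr targets were called. Of 6 tested CAR and PXR targets, 1 was called higher and 1 lower. The PAR bZIP factors and core clock genes, which drive daily rhythms of several P450s, included 10 of 16 higher and 4 lower in the PS livers at an unadjusted p of at most 0.05, with 0 called. Dbp, 1 of those factors, had 15, 395, 76 and 36 counts in CS and 1397, 499, 1568, 675 and 1689 in PS, every PS liver above every CS liver. In the lung diet comparison, 8 of the same 16 genes were higher and 4 lower at an unadjusted p of at most 0.05. At an edgeR adjusted p under 0.05, 4 were called higher and 2 lower, where 4.8% and 4.43% of all genes were. The time of day of tissue collection was not given in the sources used here. The part of the clock in the Cyp2c38, Cyp2b10 and Alas1 values, and in the lung diet values, was not tested.

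Markers of other cell types were lower in the PS livers without a call. All 7 tested macrophage markers had log2 fold changes below 0 in PS, with a median of -0.78 and 2 at an unadjusted p of at most 0.05, and their summed level ran from 202 to 258 CPM in CS and from 61.7 to 213 in PS. All 8 endothelial markers were also below 0 (median -0.56), and the part of either cell type in the member values was not tested. The hepatocyte markers had 4 above and 4 below 0 (median -0.02). The pericentral list, the zone where Cyp2e1 and Cyp1a2 are strongest, had 6 above and 4 below 0 with a median of 0.05, 1 gene passing higher and 2 lower at the unadjusted threshold. In the lung, 1 of 8 tested regulators was called, Ppara, the fatty acid receptor, with 48, 44 and 52 counts in CS and 7, 9 and 17 in PS (log2 fold change -2.0 ± 0.41; edgeR adjusted p = 0.0312).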

How the data were processed

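RNA was sequenced from 9 livers and 6 lungs (poly-A libraries). Per the labels and the methods, the authors aligned paired reads with HISAT2 2.0.5 to mm10 and counted reads per gene with featureCounts 1.5.0-p3. The deposited counts are whole reads per gene without normalization. The deposited FPKM values were made by the authors from counts and gene length, separately for each tissue, so no test used FPKM across tissues. The gene model, the strand setting and the handling of reads that fit several genes are not given in the sources used here, so antisense and near-identical genes cannot be separated. All 61 members were found in GENCODE M21, 58 with the same start and end.

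From the counts, edgeR 4.0.16 (R 4.3.3; TMM, filterByExpr, robust quasi-likelihood test) compared diets within each tissue, and the tissues and the difference of the diet effects in 1 model of 4 groups over 15 libraries. P-values were adjusted by Benjamini-Hochberg over all genes tested, 13195 in liver, 16717 in lung and 17696 in the joint model. Calls were counted at an adjusted p under 0.05 and at an unadjusted p of at most 0.05. "No overlap" compared TMM-normalized CPM. Alternatives were DESeq2 1.42.0 (size factors, Wald test), no filter, a minimum of 10 counts per library, limma 3.58.1 on log2(FPKM + 1) and log2(FPKM + 0.1), replicate or mouse as a block, 1 diet only, and leaving out each library. The fits were tested on simulated data. Intervals and floors cover counting error only. Each mouse is 1 replicate.

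Samples were grouped by tissue and diet from their labels. Liver and lung from 1 mouse were paired by the mouse in the label, while correlations of their deviations were -0.08 to 0.16. Near copies were found with BLAST 2.17.0 on transcripts. Members and gene lists were chosen with earlier results of these data known. Members were named when they passed a threshold in a diet comparison, were among the 10 highest of a tissue, the highest of a subfamily, or among the 5 largest tissue differences in each direction; genes of the lists, near copies and overlapping genes, and the members that differed between livers, were named besides. No library was left out of the main fits.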

Additional observations from a re-analysis of the deposited data

Results flagged for a closer look

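Among 60 groups of 4 or 5 livers tested for a single distant value, 5 were marked, and chance marks about 1 in 20 groups. The measure is the gap to the nearest liver as a fraction of the range of the group. Of the 5, 3 concerned liver CS replicate 2. Its Cyp2c68 level was 125 FPKM against 103 in each of the other 3 CS livers (gap 0.995 of the range), its Cyp2d26 level 717 against 523 to 551 (0.855), and its Cyp3a13 level 37.2 against 75.5 to 82.3 (0.849). Cyp2t4 was 1.14 FPKM in liver PS replicate 1 against 0.0707 to 0.141 in the other PS livers (0.934). Cyp2ab1 was 0.0208 FPKM in liver CS replicate 4 and 0 in the other CS livers; this is 1 read against none, so its gap of 1.0 of the range holds by construction.

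The diet effect on Cyp2g1 differed between the tissues by -3.59 on the log2 scale (lung minus liver; unadjusted p = 0.001, edgeR adjusted p = 0.216), and this difference did not pass the adjustment. Its counts were higher in 5 of 5 PS livers than in any CS liver and lower in 3 of 3 PS lungs than in any CS lung, with at most 60 reads in a library.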

How the results depend on the processing

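Liver diet: members at an unadjusted p of at most 0.05 numbered 1 lower with no filter, and over fits that left out 1 library 2 to 11 higher and 0 to 1 lower; DESeq2 called 2 higher at its adjusted p. Lung diet: DESeq2 called 2 higher and 1 lower, limma with either pseudocount 0 higher, and the fit with no filter and the replicate block 1 lower each; the block gave 4 lower at the unadjusted threshold and no filter a median of -0.84. Leaving out 1 lung gave 0 to 2 called higher, 0 to 2 called lower, and 1 to 3 higher and 1 to 4 lower at the unadjusted threshold. Lung against liver: 4 were called higher with CS libraries only, and the median was -10.00 with CS only, -10.42 with PS only, -6.58 with no filter and -10.02 to -8.54 without 1 library. Lung minus liver: DESeq2 called 1 lower, the mouse block gave 1 higher and 4 lower (unadjusted p at most 0.05), and leaving out 1 library gave 0 to 2 higher and 3 to 13 lower; Cyp3a11 reversed to 3.16 without lung CS replicate 1, which held 59 of its 64 lung reads, and was -3.90 without lung PS replicate 2. The pooled Cyp2j9 ratio of liver over lung went from 1.16 to 0.828 without liver CS replicate 2, an alternative chosen after seeing the data. The cause of the other changes was not tested.

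Replicate numbers within a tissue did not pair the samples (correlations -0.41 to 0.09); with the replicate block the edgeR adjusted p was 0.0578 for Cyp2u1, 0.0463 for Cyp1b1 and 0.0280 for Cyp2d22 in the lung. Over all genes, calls higher in the PS lungs numbered 802 with all libraries and 0 to 1752 when 1 lung was left out. In the lung 46 members had fewer than 100 counts over the 6 libraries together, which limits what the lung comparisons can show for them.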
